A study of Mus musculus with 6 samples.

Results

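Interferon-stimulated genes are the antiviral and regulatory genes that a cell switches on after an interferon binds its receptor. They were followed here as 9 genes, Isg15, Ifit1, Ifit3, Irf7, Ifitm3, Bst2, Oasl2, Usp18 and Ifi27, each taken from the deposited table by its symbol. All 9 were among the 47122 gene models of the table, and all 9 passed the filter on low values that left 14589 tested genes. The comparison was between 3 ovary samples in which Bcas2 had been deleted in oocytes (conditional knockout, cKO) and 3 wild-type (WT) ovary samples, all from mice at 1 day post partum (dpp). Bcas2 encodes a subunit of a complex of the spliceosome, and the question was how transcript levels in the ovary differ when oocytes lack it. A description label speaks of granulosa cells, but the titles and the tissue label say ovary, and the levels are those of the whole organ, not of oocytes alone. The labels do not name the driver of the deletion, the exons removed or whether a sample was 1 animal or a pool, so the spread behind each p-value is that between libraries and could be partly technical.

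As background, interferons signal through cell surface receptors and the kinases JAK1 and TYK2 to transcription factors that bind the interferon-stimulated response element (ISRE) in the promoters of their target genes. Interferon-gamma acts mainly through another element, the gamma-activated site (GAS). Cells also keep a low basal level of many of these genes without infection, and Ifitm3 is known in the mouse as a gene expressed in early germ cells.

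The promoter stretches that hold ISRE cores are shown first, because they are the sequence feature that 5 of the members share. RefSeq windows on GRCm38.p6, from 250 bases before to 50 bases after the annotated gene start, were given for 7 of the 9 members, with none for Usp18 and Ifi27. A shortened ISRE core, GAAANNGAA searched on both strands and with overlapping matches counted separately, was found in 5 of these 7 windows. The same letters were found in 8.57% of all 27025 windows of 300 bases in the RefSeq table. In the sequences, written on the strand of the gene, capitals mark the ISRE cores, which read as the reverse complement where the match is on the other strand.
Isg15: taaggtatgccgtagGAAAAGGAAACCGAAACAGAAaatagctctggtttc
Ifit1: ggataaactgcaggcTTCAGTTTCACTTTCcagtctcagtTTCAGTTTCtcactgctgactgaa
Ifit3: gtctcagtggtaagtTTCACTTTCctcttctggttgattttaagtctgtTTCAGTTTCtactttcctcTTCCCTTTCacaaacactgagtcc
Ifitm3: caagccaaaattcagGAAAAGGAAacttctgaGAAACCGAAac
Bst2: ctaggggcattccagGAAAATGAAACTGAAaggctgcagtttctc

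These stretches lie on GRCm38.p6 at chr4:156200861-156200911 (minus strand) for Isg15, chr19:34640765-34640828 (plus) for Ifit1, chr19:34583359-34583450 (plus) for Ifit3, chr7:141010715-141010757 (minus) for Ifitm3 and chr8:71537573-71537617 (minus) for Bst2. Isg15 held 3 overlapping cores that began 78, 72 and 66 bases before the annotated start. Ifit1 and Ifit3 held 3 each on the opposite strand, Bst2 held 2 overlapping cores, and the 2 cores of Ifitm3 began at bases 3 and 20 of the annotated transcript. The 92-base stretch of Ifit3 was letter for letter the same as that of its neighbour and near-copy Ifit3b (0 differences). A shortened GAS core, TTCNNNGAA, which reads the same on both strands, was found in the windows of Ifitm3 and Bst2 and in 8.47% of all windows, and in each of the 2 it overlapped an ISRE core. The windows of Irf7 and Oasl2 held neither set of letters. Such matches describe letters in a window and were not tested for binding.

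**Figure D1:**
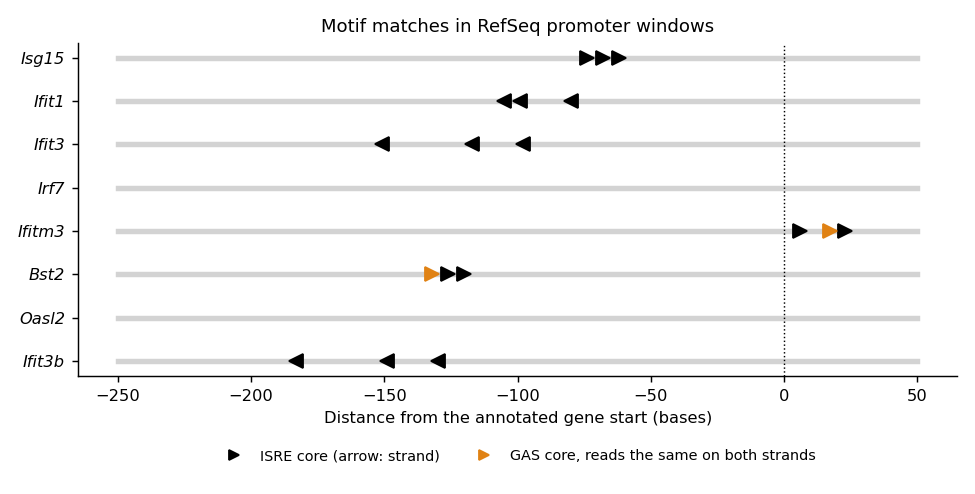
Positions of ISRE core (black) and GAS core (orange) matches along the RefSeq promoter windows of 7 members and of Ifit3b, as distance in bases from the annotated gene start; arrows give the strand of a match. ISRE cores appear in 5 members and in Ifit3b, upstream of the start in all of these except Ifitm3, and the windows of Irf7 and Oasl2 are empty.

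The values are FPKM as deposited, fragment counts divided by gene length and by a scale for each library. Reads recovered from these values summed to between 16800421 and 18382568 in the cKO libraries and between 17252045 and 19565275 in the WT libraries. The scale did not follow these sums alone. In cKO replicate 1, with 16887623 reads, 1 read per kilobase stood for 0.0575 FPKM, and in WT replicate 1, with 18121659 reads, for 0.0574 FPKM. Bcas2 itself stood at 18.9, 21.9 and 18.3 FPKM in cKO replicates 1, 2 and 3 and at 54.5, 37.5 and 35.7 FPKM in WT replicates 1, 2 and 3, without overlap. Its log2 fold change was −1.05 (limma unadjusted p = 0.00050, adjusted p = 0.955), so the test did not call even the deleted gene. Markers of the labelled tissue were present, with summed levels of 9 oocyte genes of 953.5 to 1277 FPKM in cKO and 817.2 to 1270 FPKM in WT, and of 7 pregranulosa genes of 389.4 to 438.5 FPKM in cKO and 337.0 to 482.6 FPKM in WT. Certain libraries stood apart within their groups: 8 erythroid genes summed to 13690 FPKM in cKO replicate 2 against 405.1 to 1233 FPKM in the other 5 libraries. WT replicate 1 was far from the rest on the first principal component (46.3% of the variance), with 12 endothelial genes at 227.9 FPKM in sum against 53.0 to 79.5 FPKM elsewhere. In the same library 9 stroma and pericyte genes summed to 593.2 FPKM, against 181.4 to 286.6 FPKM in the other 5, and 7 surface epithelium genes to 236.9 FPKM, where the other 5 libraries had 534.1 to 647.8 FPKM. The part of these libraries' makeup in the members' levels was not tested. In such whole-tissue samples, fewer cells of a type and less RNA per cell cannot be told apart.

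No member passed the test. By limma on log2(FPKM + 1) with Benjamini-Hochberg adjustment over 14589 genes, 0 of the 9 members and 0% of all genes were called, and the adjusted p of the members lay between 0.955 and 0.971. At an unadjusted p under 0.05 the same test counted 0 of the 9, against 3.04% of all genes (1.89% higher in cKO and 1.14% lower). Limma-voom on the recovered reads also called 0 members, with 0 at an unadjusted p under 0.05, against 0% and 2.47% of all genes. All 9 log2 fold changes were above 0, as were 48.7% of those of all genes. They ran from 0.11 for Ifit3 to 0.62 for Isg15, with a median of 0.24 against −0.0058 over all tested genes, and 10.2% of the tested genes had a log2 fold change above that median. The groups did not overlap for 1 member, Ifitm3, where 7.88% of all genes had no overlap and 4.2% had none with cKO higher. The members tracked each other over the libraries, as described further on, so they are not 9 separate observations of the difference.

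**Figure D2:**
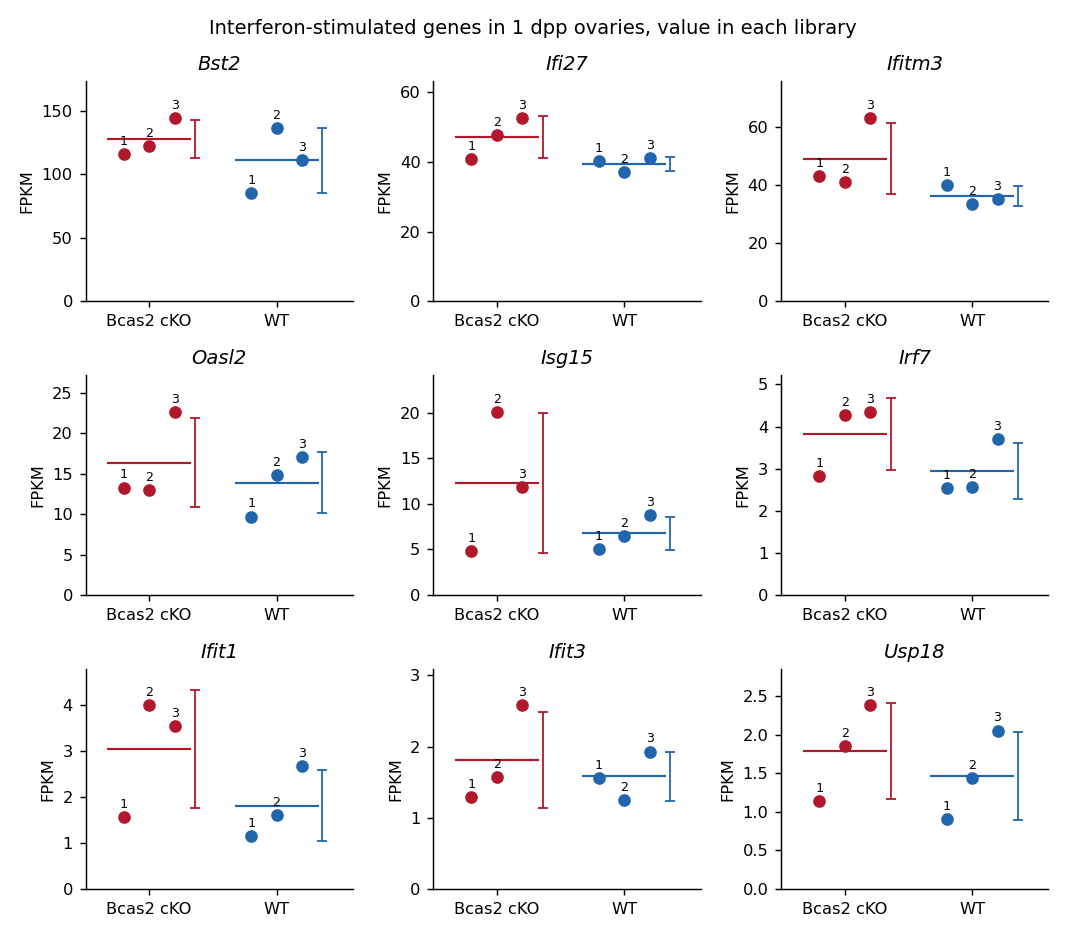
FPKM of the 9 members in each library, ordered by mean level, with Bcas2 cKO (red) left of WT (blue); numbers are replicate numbers, horizontal lines group means and bars to their right 1 SD (n = 3 each), and every axis starts at 0. The groups overlap in every panel but that of Ifitm3.

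In level the members spanned from Bst2, at 119.2 FPKM on average over the 6 libraries and above 97.4% of the tested genes, to Usp18, at 1.63 FPKM and above 10.9% of them. FPKM is a value per length, so levels can be set between genes. Ifi27 (43.2 FPKM) and Ifitm3 (42.6 FPKM) followed Bst2, and their ranges over the libraries overlapped each other but not those of Bst2 or of Oasl2 (15.1 FPKM). Oasl2 overlapped with Isg15 (9.52 FPKM) in range. Isg15 lay above Irf7 (3.38 FPKM) in every library. Irf7, Ifit1 (2.42 FPKM), Ifit3 (1.70 FPKM) and Usp18 overlapped each with the next.

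Among the effectors, Isg15 encodes a ubiquitin-like protein that is joined to other proteins. It lies on chromosome 4 from 156283881 to 156285275 on the minus strand (GRCm39, as for all member positions; gene identifier 100038882). Its level was 4.87, 20.1 and 11.9 FPKM in cKO replicates 1, 2 and 3, from 64, 256 and 166 reads, and 5.09, 6.48 and 8.74 FPKM in WT replicates 1, 2 and 3, from 67, 85 and 129 reads. The cKO libraries thus held both the lowest and the highest value of the 6, and the highest was 4.13 times the lowest. The means were 12.3 ± 7.63 FPKM in cKO and 6.77 ± 1.84 FPKM in WT (SD, n = 3 each), with a log2 fold change of 0.62 (SE 0.44) and a limma adjusted p of 0.955. The log2 fold change was 0.19 without cKO replicate 2 and 1.11 without cKO replicate 1.

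Ifit1 and Ifit3 encode tetratricopeptide repeat proteins, of which Ifit1 binds foreign RNA caps. Ifit1 (chromosome 19, 34618289 to 34627409, plus strand) was at 1.57, 3.99 and 3.54 FPKM in cKO replicates 1, 2 and 3 and at 1.15, 1.62 and 2.66 FPKM in WT replicates 1, 2 and 3. The lowest cKO value lay below the upper 2 WT values. The log2 fold change was 0.50 (SE 0.31, limma adjusted p = 0.955), with means of 3.03 ± 1.29 FPKM in cKO and 1.81 ± 0.771 FPKM in WT (SD, n = 3 each). It was 0.80 without cKO replicate 1, 0.32 without cKO replicate 2 and 0.33 without WT replicate 1. The gene lies inside Ifit1bl1 on the other strand, which averaged 0.265 FPKM in cKO and 0.227 FPKM in WT.

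Ifit3 (chromosome 19, 34560519 to 34566382, plus strand) was at 1.29, 1.58 and 2.58 FPKM in cKO and at 1.56, 1.25 and 1.93 FPKM in WT, for replicates 1, 2 and 3. The groups interleaved, and the log2 fold change of 0.11 (SE 0.21) was the smallest of the 9. It ran from −0.08 without cKO replicate 3 to 0.24 without cKO replicate 1. Ifit3b, whose reads the counting may have split with Ifit3, had 0.696, 0.719 and 0.919 FPKM in cKO against 0.463, 0.361 and 0.482 FPKM in WT, without overlap, and stayed below the filter. With the levels of Ifit3 and Ifit3b summed, an alternative chosen after the values were seen, the log2 fold change was 0.24 (limma adjusted p = 0.955). Ifit2, the next paralog of the cluster, averaged 2.64 ± 0.0243 FPKM in cKO and 2.76 ± 0.744 FPKM in WT (SD, n = 3 each), with WT replicate 1 the highest at 3.62 FPKM.

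Membrane proteins made up the abundant part of the members. Ifitm3, which blocks the entry of enveloped viruses at endosomes (chromosome 7, 140589503 to 140590657, minus strand), was at 43.2, 41.0 and 63.1 FPKM in cKO replicates 1, 2 and 3 and at 39.9, 33.3 and 35.0 FPKM in WT replicates 1, 2 and 3. All cKO values lay above all WT values, though cKO replicate 2 exceeded WT replicate 1 by little. The means were 49.1 ± 12.2 FPKM in cKO and 36.1 ± 3.44 FPKM in WT (SD, n = 3 each), and the log2 fold change was 0.41 (SE 0.17, 95% interval −0.0036 to 0.82, limma adjusted p = 0.955). Without cKO replicate 3 it was 0.22. The summed level of 8 mesonephros and oviduct epithelium markers, none at 0 throughout, also separated the groups, though narrowly. It was 66.8, 61.2 and 79.0 FPKM in cKO and 33.8, 60.0 and 56.4 FPKM in WT. Most of it was Epcam, at 40.7, 45.9 and 52.8 FPKM in cKO and 24.1, 49.4 and 44.2 FPKM in WT, with overlap. Of the 6 tested markers 3 had groups without overlap, all with cKO higher, against 4.2% of all genes. The filter had a part in this count. Foxj1, among the 3, was at 1.12, 1.03 and 1.23 FPKM in cKO and 0.582, 0.396 and 0.278 FPKM in WT, so it passed only through cKO. Cldn3, also among the 3, reached 1 FPKM in every cKO library but in WT only in replicate 3 (1.09 FPKM). The count is therefore no measure of a difference in these markers. The part of these markers in the level of Ifitm3 was not tested. The groups overlapped for its neighbours in the family. Ifitm2 was at 68.5, 69.3 and 72.3 FPKM in cKO and 74.6, 64.2 and 53.0 FPKM in WT. Ifitm1 was at 71.6, 56.8 and 70.5 FPKM in cKO and 78.6, 51.2 and 45.3 FPKM in WT. In each of these paralogs the highest of all values belonged to WT replicate 1.

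Bst2, or tetherin, holds budding viruses at the cell surface (chromosome 8, 71986899 to 71990116, minus strand). It was at 116.3, 121.9 and 144.5 FPKM in cKO replicates 1, 2 and 3, from 1633, 1658 and 2162 reads, and at 85.2, 136.4 and 111.0 FPKM in WT replicates 1, 2 and 3, from 1200, 1914 and 1752 reads. One WT library lay above 2 of the cKO libraries, and the log2 fold change was 0.22 (SE 0.18, limma adjusted p = 0.955). It was 0.045 without WT replicate 1, 0.13 without cKO replicate 3 and 0.38 without WT replicate 2.

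Ifi27 encodes an interferon-alpha-inducible protein (chromosome 12, 103400448 to 103406504, plus strand). It was at 40.7, 47.8 and 52.6 FPKM in cKO replicates 1, 2 and 3 and at 40.1, 37.2 and 41.0 FPKM in WT replicates 1, 2 and 3. A single cKO library, replicate 1, lay within the WT range. The log2 fold change was 0.24 (SE 0.12, limma adjusted p = 0.955), with means of 47.05 ± 5.99 FPKM in cKO and 39.4 ± 1.98 FPKM in WT (SD, n = 3 each). All of Ifi27 lies within its paralog Ifi27l2a on the opposite strand, and the labels do not say whether reads were counted by strand. Ifi27l2a was at 5.15, 6.12 and 9.84 FPKM in cKO and at 2.60, 3.59 and 5.91 FPKM in WT, and the sum of both genes, chosen after the values were seen, had a log2 fold change of 0.30 (limma adjusted p = 0.955).

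Oasl2, a relative of the oligoadenylate synthetases with ubiquitin-like repeats (chromosome 5, 115034995 to 115050306, plus strand), was at 13.3, 13.0 and 22.7 FPKM in cKO replicates 1, 2 and 3 and at 9.72, 14.9 and 17.0 FPKM in WT replicates 1, 2 and 3. Apart from cKO replicate 3, the cKO values lay inside the WT range. Its log2 fold change was 0.21 (SE 0.27, limma adjusted p = 0.955). It was −0.04 without cKO replicate 3, −0.01 without WT replicate 1 and 0.33 to 0.37 without cKO replicate 1, cKO replicate 2 or WT replicate 3. Its paralog Oasl1 stayed below the filter, at 0.407, 0.551 and 1.03 FPKM in cKO and 0.532, 0.814 and 0.588 FPKM in WT.

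Regulators of the response were at low levels. Irf7, the transcription factor that amplifies interferon production (chromosome 7, 140843096 to 140846412, minus strand), was at 2.83, 4.27 and 4.35 FPKM in cKO replicates 1, 2 and 3 and at 2.55, 2.56 and 3.71 FPKM in WT replicates 1, 2 and 3. The upper 2 cKO libraries were above every WT library, and cKO replicate 1 was not. The log2 fold change was 0.29 (SE 0.19, limma adjusted p = 0.955), and 0.44 without cKO replicate 1.

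Usp18, the protease that removes ISG15 from proteins and dampens receptor signalling (chromosome 6, 121222865 to 121247876, plus strand), was at 1.14, 1.85 and 2.38 FPKM in cKO replicates 1, 2 and 3 and at 0.907, 1.43 and 2.05 FPKM in WT replicates 1, 2 and 3. These values rest on 35, 55 and 78 reads in cKO and 28, 44 and 71 reads in WT, so counting error is large beside the difference between the means. The groups interleaved throughout, with a log2 fold change of 0.18 (SE 0.24, limma adjusted p = 0.955) that was 0.03 without cKO replicate 3, 0.0077 without WT replicate 1, 0.36 without cKO replicate 1 and 0.35 without WT replicate 3. A long noncoding RNA gene, Gm44148, overlaps 62.9% of its span on the other strand at 0.141 FPKM in cKO and 0.235 FPKM in WT.

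**Figure D3:**
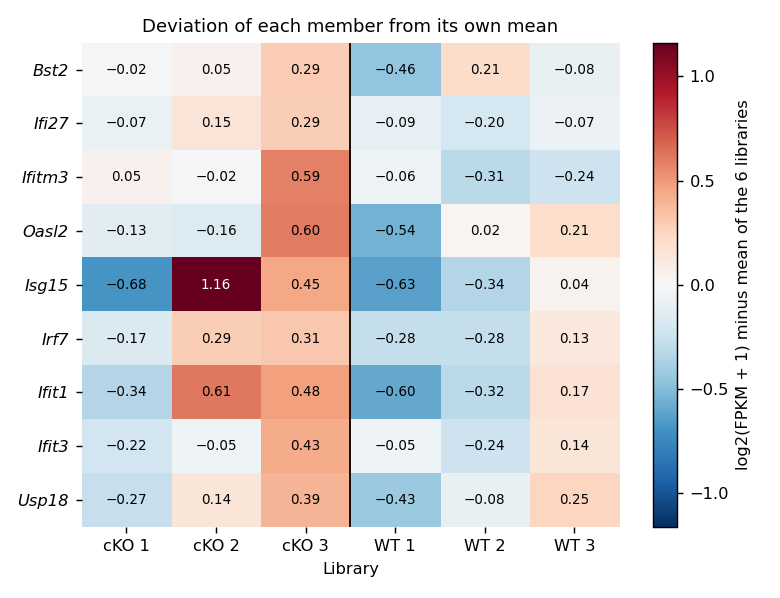
Deviation of each member, in log2(FPKM + 1), from its own mean over the 6 libraries, with cKO libraries left of the black line and WT libraries right of it. cKO replicate 3 is above the mean for every member, Isg15 peaks in cKO replicate 2 at 1.16, and WT replicate 1 is below the mean for every member.

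Single libraries stood out across the members. cKO replicate 3 held the highest of the 6 values for 7 of the 9 members and cKO replicate 2 for the other 2, Isg15 and Ifit1. Of all tested genes, 10.3% were highest in cKO replicate 3 and 21.5% in cKO replicate 2. The lowest value fell in WT replicate 1 for 5 members, in WT replicate 2 for 3 and in cKO replicate 1 for 1, against 28.5%, 12.5% and 12.4% of all tested genes. The mean of the 9 members on the log2(FPKM + 1) scale was 3.30, 3.75 and 3.93 in cKO replicates 1, 2 and 3 and 3.16, 3.34 and 3.57 in WT replicates 1, 2 and 3. On this mean, cKO replicate 1 lay below WT replicates 2 and 3, so the groups overlapped.

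Members tracked each other across the libraries. In all 36 pairs the Pearson correlation over the 6 libraries was above 0, with a median of 0.68; it was highest between Ifit1 and Irf7 (0.975) and lowest between Ifit3 and Bst2 (0.27). The points share their libraries, so these correlations are a description. Pairs of other genes were not computed, so the correlations do not show a trait particular to the members. Among 2117 other tested genes with a range of at least 1 on the log2 scale, the 5 whose values were most like the mean of the members over the 6 libraries were Gm33458 (r = 0.945), Rpl7a (0.940), Ifi27l2a (0.923), Svs5 (0.919) and Rasl10a (0.891). Of these, Ifi27l2a was on the list of other interferon-stimulated genes.

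A few interferon genes, Isg15 among them, peaked in cKO replicate 2, but most did not. With a level at least 1.5 times that of the next highest library, 4 of the 100 tested members and pathway genes peaked there. They were Isg15, Ube2l6, Rsad2 and Isg20, against 1.28% of all tested genes. This cut was chosen after the values of Isg15 and the others were seen. Without a cut, 2 of the 36 other tested interferon-stimulated genes were highest in cKO replicate 2, against 21.5% of all tested genes. Ube2l6, the conjugating enzyme for ISG15, was at 29.1, 86.2 and 39.3 FPKM in cKO replicates 1, 2 and 3 and at 17.2, 31.9 and 30.1 FPKM in WT replicates 1, 2 and 3. Rsad2, an antiviral enzyme also called viperin, was at 0.669, 9.18 and 1.90 FPKM in cKO and at 1.14, 1.11 and 2.29 FPKM in WT. Isg20, an RNA exonuclease, was at 1.37, 6.05 and 1.17 FPKM in cKO and at 1.05, 1.39 and 2.70 FPKM in WT. That library was also the one rich in blood transcripts: Hbb-bt, a beta-globin gene, was at 67.9, 1690 and 114.2 FPKM in cKO and at 27.0, 50.6 and 119.9 FPKM in WT. Alas2, the erythroid enzyme of heme synthesis, was at 4.02, 116.0 and 10.5 FPKM in cKO and at 2.84, 2.03 and 10.4 FPKM in WT. All 8 erythroid markers were highest in cKO replicate 2, and their part in the level of Isg15 was not tested.

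**Figure D4:**
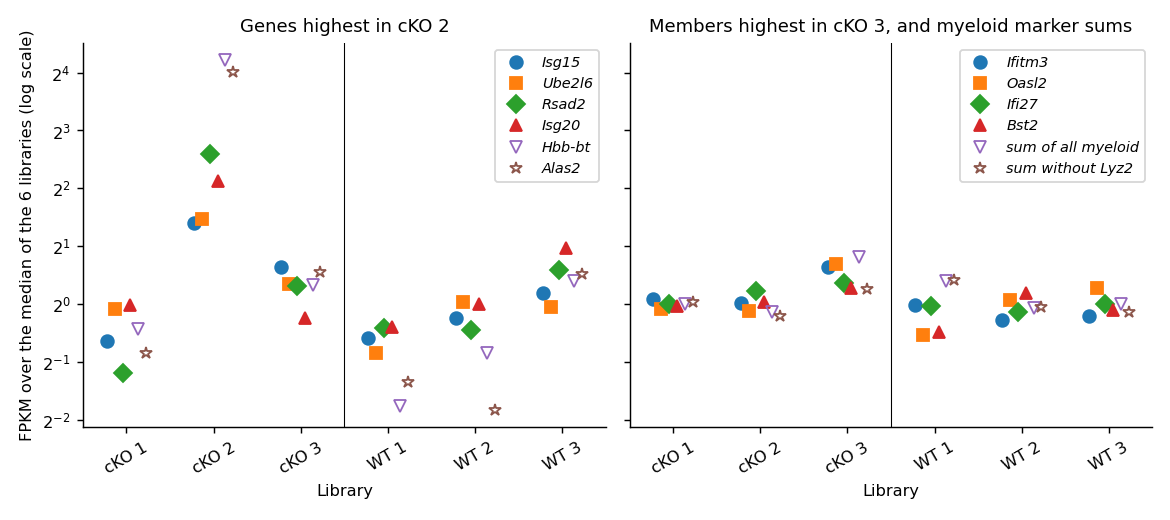
FPKM of each gene divided by its median over the 6 libraries, on a log axis, with cKO libraries left of the line and WT libraries right of it; filled symbols are interferon genes and open symbols markers or summed markers. On the left, Isg15, Ube2l6, Rsad2 and Isg20 peak in cKO replicate 2 together with the erythroid genes Hbb-bt and Alas2, and on the right Ifitm3, Oasl2, Ifi27 and Bst2 are highest in cKO replicate 3, while the sum of 15 myeloid markers is highest there with Lyz2 and in WT replicate 1 without it.

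Macrophage and leukocyte transcripts were split in the library where they peaked. Of 15 such markers 4 were highest in cKO replicate 3, where most members were highest, against 10.3% of all tested genes. Another 9 were highest in WT replicate 1, where 5 members were lowest, against 27.6% of all tested genes. Lyz2, a lysozyme of macrophages and granulocytes, was at 6.91, 9.11 and 37.6 FPKM in cKO replicates 1, 2 and 3 and at 9.83, 7.30 and 11.6 FPKM in WT replicates 1, 2 and 3. Over all 15 markers the summed level was 45.7 to 88.2 FPKM in cKO and 48.2 to 66.5 FPKM in WT, with the top value in cKO replicate 3. Without Lyz2 the sums were 43.6, 36.6 and 50.6 FPKM in cKO replicates 1, 2 and 3 and 56.7, 40.9 and 38.6 FPKM in WT replicates 1, 2 and 3. The top value was then in WT replicate 1 and the next in cKO replicate 3. None of the 15 was at 0 throughout, 11 passed the filter, and 6 of the 11 had a log2 fold change above 0, with a median of 0.0041. Their part in the members' levels was not tested. Of 10 markers of plasmacytoid dendritic cells and lymphocytes 1 passed the filter, with a log2 fold change of −0.44, and their summed level was 2.98 to 3.40 FPKM in cKO and 3.17 to 8.19 FPKM in WT.

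Interferon transcripts themselves were near or at 0. Of 21 interferon genes in the table, 17 were listed at 0 in all 6 libraries, among them Ifnb1, which encodes interferon-beta, and Ifne, which encodes the interferon of the female reproductive tract. The other 4 rested on 3 reads in all in the cKO libraries and 6 in the WT libraries. For Ifnb1, a count of 0 allows up to 3 reads in a library, or 0.199 to 0.232 FPKM, for counting error only. A 0 here means that no read was assigned: Trex1, an exonuclease gene active in many cell types, was also listed at 0 in all 6 libraries. At this depth a difference in ligand transcripts was not detectable.

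Receptors and kinases, which receive the signal, did not pass. Of 9 listed genes 8 were tested, 0 rose and 0 fell, with 0 at an unadjusted p under 0.05, 2 of the 8 log2 fold changes above 0 and a median of −0.08. Jak1 was at 47.7 ± 4.94 FPKM in cKO and 57.7 ± 12.2 FPKM in WT, Tyk2 at 8.71 ± 0.170 FPKM in cKO and 9.70 ± 0.962 FPKM in WT, and the interferon-gamma receptor gene Ifngr1 at 13.2 ± 0.967 FPKM in cKO and 15.5 ± 2.63 FPKM in WT (SD, n = 3 each).

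Among nucleic acid sensors and their adaptors, 11 of 17 were tested and 0 rose or fell, with 7 log2 fold changes above 0 and a median of 0.03. Trim25, a ubiquitin ligase that activates the RNA sensor RIG-I, was at 11.8 ± 1.83 FPKM in cKO and 14.3 ± 2.68 FPKM in WT. Irf3, the factor that first induces interferon genes, was at 19.5, 24.3 and 19.2 FPKM in cKO and 16.5, 20.47 and 18.3 FPKM in WT, and the kinase gene Ikbke at 2.56 ± 0.379 FPKM in cKO and 2.19 ± 0.273 FPKM in WT (SD, n = 3 each).

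STAT and IRF factors held 6 tested genes of 7, of which 0 rose or fell and 5 had a log2 fold change above 0. For 1 of the 6, Stat2, the groups did not overlap, with cKO higher, as for 4.2% of all genes. The median of the 6 was 0.21, near that of the members. Summed over all 7 listed genes, the level was 52.0 FPKM in cKO replicate 3 and 34.9 to 43.35 FPKM in the other libraries. Stat2 was at 5.54, 5.87 and 7.18 FPKM in cKO replicates 1, 2 and 3 and at 5.18, 4.97 and 5.28 FPKM in WT replicates 1, 2 and 3 (log2 fold change 0.22, SE 0.12, limma adjusted p = 0.955). Irf9, the DNA-binding partner of the STAT proteins, was at 17.7 ± 1.14 FPKM in cKO and 15.1 ± 2.05 FPKM in WT, and Irf1 at 7.23 ± 1.204 FPKM in cKO and 5.82 ± 1.10 FPKM in WT (SD, n = 3 each). The median of this list was 0.07 without WT replicate 1.

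The enzymes that join ISG15 to its targets were 4 tested genes, among them Trim25, of which 0 rose or fell, 3 had a log2 fold change above 0 and the median was 0.33. Herc6, in the mouse the main ligase for ISG15, was at 2.64, 2.16 and 2.61 FPKM in cKO replicates 1, 2 and 3 and at 1.21, 1.76 and 1.49 FPKM in WT replicates 1, 2 and 3. Its groups did not overlap, as for 4.2% of all genes with cKO higher. Herc6 was also the 1 gene of the list under an unadjusted p of 0.05, where 1.89% of all genes were so with cKO higher (log2 fold change 0.48, SE 0.15, limma adjusted p = 0.955). It stood between 0.40 and 0.56 whichever single library was left out. Ube2l6, described above, had a log2 fold change of 0.84 (SE 0.41, limma adjusted p = 0.955) that was 0.40 without cKO replicate 2.

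Negative regulators comprised 7 tested genes of 8, of which 0 rose or fell, 2 had a log2 fold change above 0 and the median was −0.04. Socs3, an inhibitor of JAK kinases, was at 5.20, 4.22 and 4.96 FPKM in cKO and at 7.86, 15.3 and 4.31 FPKM in WT, for replicates 1, 2 and 3, with WT replicate 2 the highest. Ptpn2, a phosphatase acting on STAT proteins, was at 10.2 ± 0.608 FPKM in cKO and 8.72 ± 0.986 FPKM in WT (SD, n = 3 each). Pias1, a SUMO ligase that dampens interferon signalling, was at 10.9 ± 0.110 FPKM in cKO and 11.8 ± 0.272 FPKM in WT (SD, n = 3 each), with a limma adjusted p of 0.955. The groups of Pias1 did not overlap, as for 3.67% of all genes with cKO lower.

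The wider set of interferon-stimulated genes was split in direction. Of 48 other such genes 36 were tested, 0 rose and 0 fell, and 1 had an unadjusted limma p under 0.05, with cKO lower, as had 1.14% of all genes. Log2 fold changes were above 0 for 20 of the 36, with a median of 0.03, while groups without overlap had cKO higher for 3 (4.2% of all genes) and lower for 2 (3.67% of all genes). Ifit1bl2, a relative of Ifit1, was at 0.662, 0.841 and 1.10 FPKM in cKO and 1.35, 1.27 and 2.04 FPKM in WT (log2 fold change −0.45, limma adjusted p = 0.955). Mx2, an antiviral GTPase, was at 1.02, 0.638 and 1.16 FPKM in cKO and 1.73, 1.81 and 1.25 FPKM in WT. Both lay near the minimum of 1 FPKM set by the filter, which Ifit1bl2 reached in 1 cKO library and Mx2 in 2. cKO replicate 3 was the highest library for 13 of the 36, against 7 of the 9 members and 10.3% of all tested genes.

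Interferon-gamma targets and antigen presentation genes gave 20 tested genes of 24, of which 0 rose or fell, 10 had a log2 fold change above 0 and the median was 0.01. Summed over all 24, the level was 319.1 FPKM in cKO replicate 3 and 243.1 to 263.8 FPKM in the other libraries. Psmb10, an immunoproteasome subunit, was at 13.6 ± 1.96 FPKM in cKO and 10.6 ± 2.10 FPKM in WT (SD, n = 3 each). B2m, the light chain of class I molecules, was at 109.0, 102.2 and 129.4 FPKM in cKO and 108.9, 96.1 and 94.9 FPKM in WT. Cd74, the invariant chain of class II molecules, was at 6.06, 4.66 and 4.27 FPKM in cKO and 2.11, 5.62 and 3.15 FPKM in WT. Each had an adjusted p of 0.955 in limma.

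**Figure D5:**
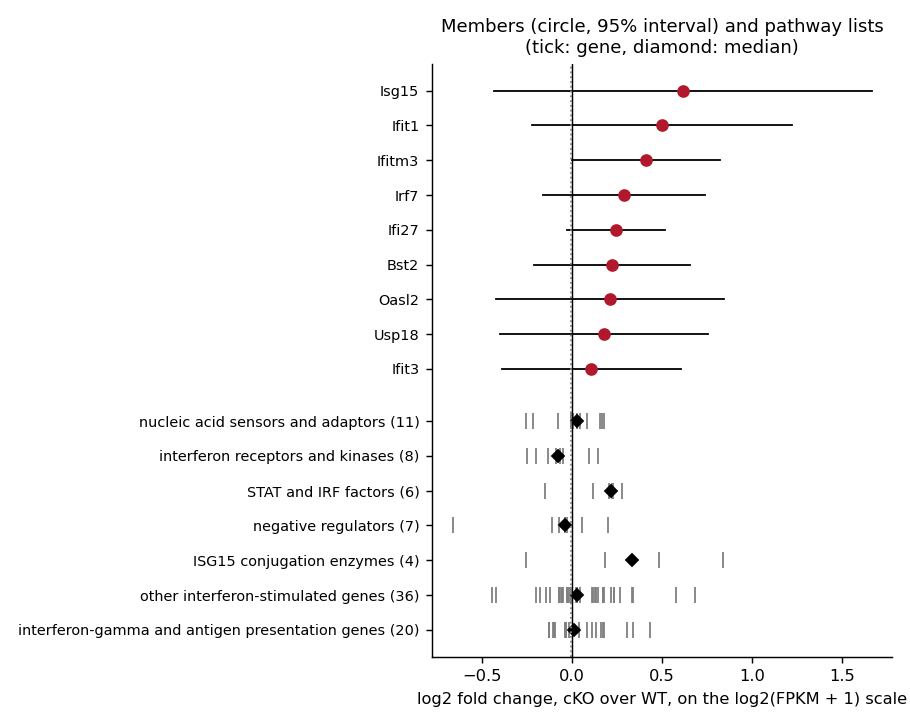
Log2 fold change, cKO over WT, on the log2(FPKM + 1) scale. Circles with lines are the 9 members with 95% limma intervals, all of which include 0; ticks are the tested genes of each pathway list, diamonds their medians and numbers in brackets the genes tested, and the dotted line is the median of all tested genes (−0.0058).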

How the data were processed

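RNA sequencing of total RNA from 1 dpp ovaries gave 6 libraries, 3 cKO and 3 WT, grouped by the sample titles. The authors deposited FPKM values with gene length, symbol and GRCm39 coordinates; per the submitters' processing notes, reads were handled with HISAT2 2.0.5, and 2 builds are listed, GRCm39 and mm10. Neither the counting tool nor the strand setting is stated in the labels. FPKM times gene length, divided by 1 step per library, gave whole reads for 100% of values above 0 and up to 10000 reads, within 0.05 of a read. Genes with at least 1 FPKM in at least 3 of 6 libraries were tested.

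The test was limma 3.58.1 in R 4.3.3 on log2(FPKM + 1), with a trended prior, two-sided, with Benjamini-Hochberg adjustment over all tested genes and a threshold of 0.05. A fold change on this log scale understates the change of a gene with low values. Scripts were tested on simulated data. An exact permutation test of 3 against 3 cannot go below 0.1. The voom alternative used reads recovered from the deposited FPKM with trimmed-mean scaling. Alternatives covered pseudocounts, filters, scalings, models and left-out libraries.

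The members and lists were chosen with earlier results of these data known. Named genes are the 9 members, their paralogs, the 3 tested genes of each pathway list with the smallest p, the 5 genes most like the members' mean, and Bcas2. Rsad2, Isg20, Hbb-bt, Alas2, Lyz2, Epcam, Foxj1 and Cldn3 were chosen after their values were seen. Of the listed symbols, Herc5 was a synonym of Herc6 and was counted once. Promoter sequences are RefSeq's for GRCm38.p6, matched by symbol; no coordinate was carried between builds.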

Additional observations from a re-analysis of the deposited data

How the results depend on the processing

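The members' count of 0 by adjusted p held under all 18 alternative settings, where the lowest adjusted p of any member was 0.299 (Ifitm3, with array weights). Over all genes the count was 0 except with array weights (1, Mir6999), without cKO replicate 2 (1, Pcna-ps2; the range over single left-out libraries was 0 to 1) and without WT replicate 1 and cKO replicate 2 together (1, Pcna-ps2). The members' median log2 fold change of 0.24 ranged from 0.16 (without cKO replicate 3) to 0.37 (without WT replicate 3), and was 0.14 without WT replicate 1 and cKO replicate 2 together and 0.18 after rescaling to TPM, where the median of all genes was −0.08. Of 158 values of single members, 153 kept their sign. The others were Ifit3 (−0.080) and Oasl2 (−0.037) without cKO replicate 3, Oasl2 (−0.010) without WT replicate 1, Bst2 (−0.080) with array weights and Usp18 (−0.020) without both WT replicate 1 and cKO replicate 2. Isg15 ranged from 0.19 (without cKO replicate 2) to 1.11 (without cKO replicate 1) and was 0.03 without WT replicate 1 and cKO replicate 2 together. Ifit2 ranged from −0.12 (without WT replicate 3) to 0.13 (without WT replicate 1), was 0.13 without WT replicate 1 and cKO replicate 2 together and 0.080 with array weights, and Ifngr1 turned to 0.010 with array weights. Median log2 fold changes of pathway lists moved by more than the replicate spread with array weights for sensors (−0.13) and STAT and IRF factors (0.034), for STAT and IRF factors also without WT replicate 1 (0.068, range 0.068 to 0.26), and for ISG15 conjugation enzymes without WT replicate 1 and cKO replicate 2 together (0.074); the causes were not tested. Counts of all genes at an unadjusted p under 0.05 were 443 as reported, 1990 with array weights, 1147 with no filter, 254 at 5 FPKM and 253 to 1056 with single libraries left out, and members at that level were 0 as reported, 3 without cKO replicate 1, 2 with array weights, and 1 without cKO replicate 2, without WT replicate 1, without both WT replicate 1 and cKO replicate 2, and with the replicate block. Deviations of same-numbered samples correlated at 0.221, 0.014 and −0.028 for numbers 1, 2 and 3, so the numbers were not taken as pairs; cKO replicate 2 correlated best with WT replicate 3 (0.318). With the replicate block 0 members and 0 genes were called, and 432 genes had an unadjusted p under 0.05. Median-of-ratios scaling changed almost nothing, as its size factors were 1.001 in all 6 libraries. The deposited values were thus already even on that scale, and this alternative could not show a dependence on it. Members near 1 to 4 FPKM rest on 28 to 177 reads a library, which limits Usp18, Ifit1, Ifit3 and Irf7 most.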
